A study of Rattus norvegicus with 12 samples.

Results

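The 10 genes of amino acid and peptide carriers of the gut epithelium were followed in the duodenal mucosa of the rat, and 9 of them were measured. The members were the genes Slc15a1, Slc3a1, Slc7a9, Slc6a19, Slc1a1 and Slc1a5, whose proteins are placed at the apical membrane, and Slc7a7, Slc7a8, Slc3a2 and Slc7a5, placed at the basolateral membrane. Each was found by its gene symbol in the platform annotation, and the brightest probe of a gene over the 12 arrays stood for it. Of the 10 genes, 9 had a probe, out of 13337 genes named on the array, and no probe carried the symbol or identifier of Slc6a19. This left 5 apical and 4 basolateral carriers.

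RNA came from mucosal scrapings of a 10 cm piece of duodenum from female Sprague Dawley rats, and 1 Illumina bead array was run per sample. The rats were 8 weeks old on arrival and are labelled as 9 weeks old, and the labels do not say whether that is the age before the 2 weeks of the protocol or at tissue collection. The 6 control rats stayed sedentary in the pool for 2 weeks, and the 6 swimming rats, after 1 week of training, swam 1 hour per day on 5 days per week. Water in the pool was held at 30 to 32 °C, all rats had pellets and water freely, and the labels name no allele or drug for either group. Scraped mucosa also holds cells of other types, and in such bulk samples fewer cells of a type cannot be told apart from less RNA per cell.

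Dietary protein reaches the enterocyte as small peptides and free amino acids. PEPT1, encoded by Slc15a1, takes up dipeptides and tripeptides together with protons, and sodium- or exchange-driven carriers of the brush border take up free amino acids. Amino acids leave through exchangers of the basolateral membrane. Several of these carriers are heteromers, in which a single-span heavy subunit (rBAT from Slc3a1, or the CD98 heavy chain from Slc3a2) brings a many-span light subunit of the Slc7 family to the membrane.

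Promoter sequences are shown for both subunits of the apical cystine carrier, which of all members read furthest below the other arrays in the one labelled swimming 5, and for Slc7a5, which did not. They come from RefSeq (build GRCr8), which held 8 of the 10 genes, and run from 250 bases before to 50 bases after the transcript start. Slc3a1 lies at chr6:15394700-15394999 on the minus strand, Slc7a9 at chr1:97246632-97246931 on the plus strand and Slc7a5 at chr19:66872363-66872662 on the minus strand. Capitals mark exact matches, on either strand, to 7 motifs. These were AGATAA for the GATA factors, GTTAAT for HNF1, CAAAGTCCA for HNF4, TTTATG for the CDX factors, TGATGNAA for the amino acid response element, TATAAA for the core promoter box of that name and GGGCGG for the GC box.
Slc3a1: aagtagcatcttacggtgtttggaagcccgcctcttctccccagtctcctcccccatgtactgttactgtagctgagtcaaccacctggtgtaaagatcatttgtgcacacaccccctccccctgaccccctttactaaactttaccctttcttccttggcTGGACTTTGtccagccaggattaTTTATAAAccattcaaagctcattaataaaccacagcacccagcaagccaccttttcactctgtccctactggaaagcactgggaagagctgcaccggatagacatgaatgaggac
Slc7a9: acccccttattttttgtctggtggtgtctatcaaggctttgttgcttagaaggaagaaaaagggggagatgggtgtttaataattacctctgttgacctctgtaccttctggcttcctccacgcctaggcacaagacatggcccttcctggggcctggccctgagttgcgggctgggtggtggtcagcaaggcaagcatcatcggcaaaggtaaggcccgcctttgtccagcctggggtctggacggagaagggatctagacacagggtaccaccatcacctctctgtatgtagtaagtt
Slc7a5: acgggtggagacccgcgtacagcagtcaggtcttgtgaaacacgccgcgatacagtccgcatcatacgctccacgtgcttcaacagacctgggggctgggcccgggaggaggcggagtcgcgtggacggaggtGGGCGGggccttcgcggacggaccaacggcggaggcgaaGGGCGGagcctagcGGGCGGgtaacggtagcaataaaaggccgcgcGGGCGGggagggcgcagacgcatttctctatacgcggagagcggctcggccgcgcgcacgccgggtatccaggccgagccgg

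The Slc3a1 window holds CAAAGTCCA, read on the opposite strand as TGGACTTTG, and overlapping forward and reverse matches to TATAAA. CAAAGTCCA occurs in 0.391% of 33469 RefSeq promoter windows of this length and TATAAA in 14.2%. The Slc7a5 window holds GGGCGG 4 times, letters that 33.1% of windows hold at least once, and the Slc7a9 window holds none of the 7 motifs. G and C make up 49.0% of the bases for Slc3a1, 53.0% for Slc7a9 and 69.3% for Slc7a5, against a median of 51.7% over all windows. The other shares were 11.6% for AGATAA, 7.45% for GTTAAT, 12.7% for TTTATG and 3.98% for TGATGNAA. A match describes the letters and is not evidence that a factor binds there.

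Values below are log2 intensities after background correction and quantile normalization, with the median probe at 6.36. Intensities of different probes cannot be ranked against each other, so carriers are compared through differences between arrays. The raw array medians lay between 62.7 and 88.83. The array labelled swimming 5 went against its duodenal label. Its mean over 14 measured genes of the proximal small intestine was 7.71, against 11.61 to 11.98 in the other 11 arrays, and over 11 genes of the large intestine 9.98, against 7.79 to 8.19. In all, 3 pairs of arrays (control 3 with swimming 3, control 4 with control 6, swimming 4 with swimming 6) differed by less over bright probes than over dim ones. Each pair within a group was counted as 1 sample in the mean ± SD, which leaves out swimming 5 and has n = 5 in control and n = 4 in swimming rats. The pair that spans the groups was left out, together with swimming 5, in a restricted comparison of 4 control with 3 swimming samples.

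None of the 9 carriers passed the comparison of swimming with control rats. limma called 0 of 22523 probes at adjusted p under 0.05 (0%) with all 12 arrays, and likewise 0 (0%) without swimming 5 and 0 (0%) in the restricted comparison. At an unadjusted p under 0.05 it held 1076 probes (4.78%) with all arrays, 1137 (5.05%) without swimming 5 and 737 (3.27%) in the restricted comparison. Of the 9 carriers, 1 (Slc7a5), 1 (Slc3a2) and 2 (Slc3a2 and Slc7a8) did so. The fits without swimming 5, with their SE and intervals, take 6 control and 5 swimming arrays. Each near-identical array is counted singly in them, so these SE are too small and the intervals too narrow. With the near-identical arrays of a group averaged (5 against 4 samples), 588 probes (2.61%) and 0 of 9 carriers had an unadjusted p under 0.05, and limma again called 0 probes (0%). Without swimming 5, 8 of 9 carriers read higher in swimming rats, with a median difference of 0.25, where 48.8% of all probes and 48.6% of those brighter than the median probe read higher, and the median of all probes was -0.0033. Markers of other cells were counted in the same comparison, in which limma called 0 of them. An unadjusted p under 0.05 was held by 2 of 12 stroma and smooth muscle genes and 0 of 19 exocrine pancreas genes. It was held by 1 of 10 immune cell genes and 3 of 6 red blood cell genes, against 5.05% of all probes. Of the stroma and smooth muscle genes 11 of 12 read higher in swimming rats (median 0.25), of the exocrine pancreas genes 17 of 19 (median 0.92), of the immune cell genes 8 of 10 (median 0.071) and of the red blood cell genes 0 of 6 (median -0.35). The part of these cells in the carriers' differences was not tested. With all arrays 6 of 9 carriers read higher in swimming rats, with a median of 0.10, against 49.4% and -0.0015 of all probes. In the restricted comparison 8 of 9 did, with a median of 0.24, against 48.2% and -0.0058. In 0 of 9 carriers were the groups free of overlap, with all arrays (0.182% of all probes) or without swimming 5 (0.377%).

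**Figure D1:**
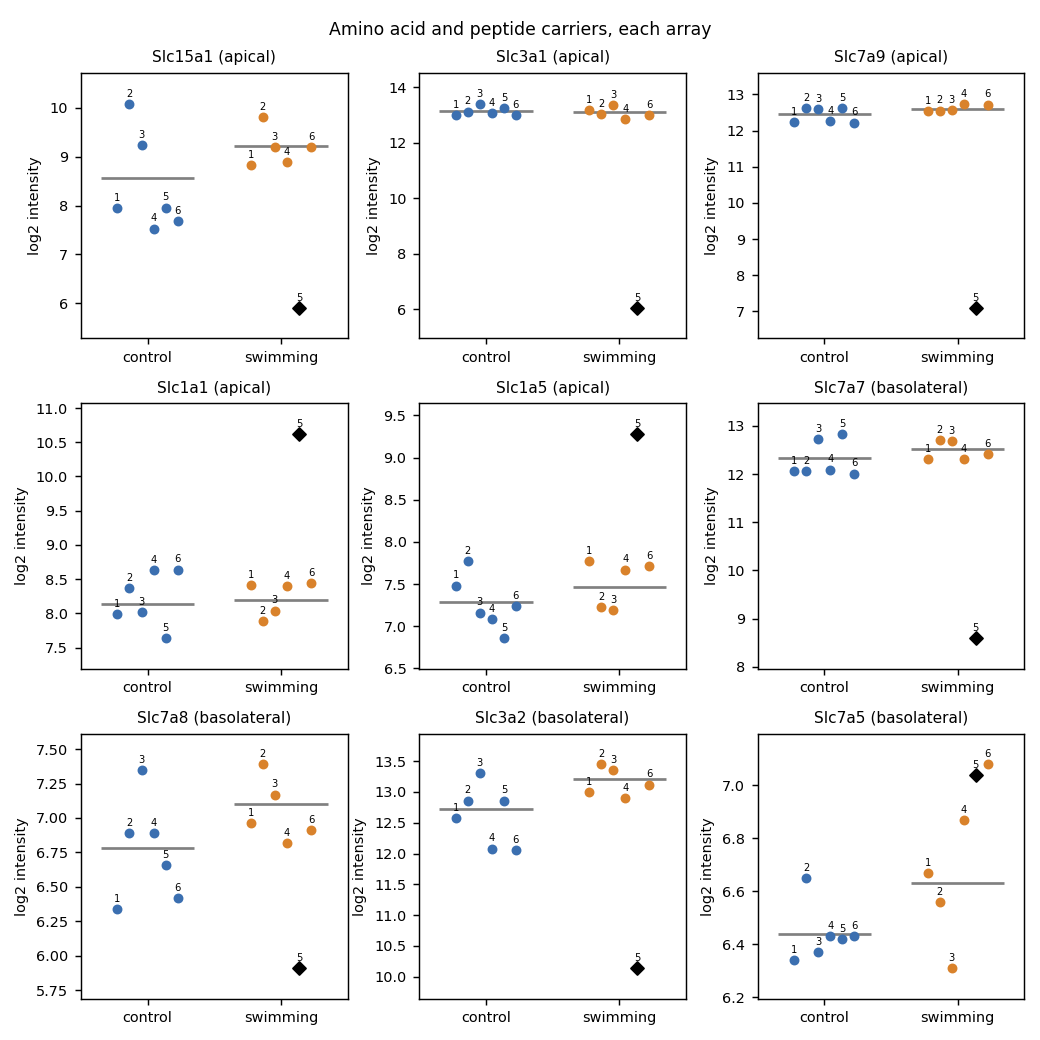
Log2 intensity of each measured carrier (vertical axes, a separate scale per panel) in the 6 control (blue) and 6 swimming arrays (orange, with swimming 5 as a black diamond). Numbers are the replicate numbers of the labels, and grey lines are group means with near-identical arrays averaged and swimming 5 left out. The black diamond lies below the other arrays for Slc15a1, Slc3a1, Slc7a9, Slc7a7, Slc7a8 and Slc3a2 and above them for Slc1a1 and Slc1a5.

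Apart from swimming 5, the peptide transporter gene Slc15a1 had the widest range of the apical carriers. It read 7.95, 10.08, 9.24, 7.53, 7.96 and 7.68 in control rats 1 to 6, and 8.83, 9.81, 9.20, 8.89, 5.91 and 9.19 in swimming rats 1 to 6. Controls 2 and 3 lay within or above the range of the swimming rats, while the other 4 controls lay below all swimming rats except number 5. The mean was 8.57 ± 1.05 in control (SD, n = 5) and 9.22 ± 0.42 in swimming rats (n = 4). The fitted difference was 0.23 (SE 0.63; limma adjusted p = 0.964) with all arrays and 0.78 (SE 0.42; limma adjusted p = 0.891) without swimming 5, with a 95% interval from -0.13 to 1.69. It was 0.65 (SE 0.48) with swimming 5 left out and near-identical arrays averaged, and 0.83 (SE 0.58) in the restricted comparison. Without swimming 5 it became 1.11 when control 2 was also left out, and 0.38 (SE 0.42) when both near-identical controls were.

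Slc3a1 and Slc7a9 encode the heavy and the light subunit of the apical exchanger for cystine and dibasic amino acids, the carrier affected in cystinuria. Slc3a1 read 12.98, 13.12, 13.40, 13.06, 13.25 and 12.98 in control and 13.18, 13.04, 13.34, 12.85, 6.06 and 13.00 in swimming rats. Slc7a9 read 12.23, 12.63, 12.59, 12.27, 12.63 and 12.22 in control and 12.53, 12.55, 12.57, 12.74, 7.10 and 12.72 in swimming rats. Apart from swimming 5 the arrays of both groups overlapped, and both genes lay between 12.22 and 13.40. For Slc3a1 the mean was 13.15 ± 0.17 in control (SD, n = 5) and 13.12 ± 0.18 in swimming rats (n = 4). The difference was -0.049 (SE 0.10) without swimming 5, with a 95% interval from -0.27 to 0.17, and -1.22 (SE 1.05) with it. For Slc7a9 the mean was 12.46 ± 0.21 in control and 12.60 ± 0.091 in swimming rats. The difference was 0.19 (SE 0.098) without swimming 5, with an interval from -0.018 to 0.41, and -0.73 (SE 0.83) with it. With swimming 5 left out and near-identical arrays averaged it was 0.13 (SE 0.11). The limma adjusted p with all arrays was 0.912 for Slc3a1 and 0.918 for Slc7a9.

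Slc1a1 encodes EAAT3, the sodium-dependent carrier of glutamate and aspartate. It read 7.99, 8.37, 8.02, 8.63, 7.64 and 8.64 in control and 8.41, 7.89, 8.04, 8.40, 10.62 and 8.44 in swimming rats. Apart from swimming 5, all swimming arrays lay inside the control range. The difference was 0.017 (SE 0.18) without swimming 5, with a 95% interval from -0.38 to 0.41, and 0.42 (SE 0.40; limma adjusted p = 0.915) with all arrays. Slc1a5 encodes ASCT2, an exchanger of neutral amino acids that carries glutamine. It read 7.48, 7.77, 7.16, 7.08, 6.86 and 7.24 in control and 7.77, 7.23, 7.19, 7.67, 9.28 and 7.71 in swimming rats. Its difference was 0.25 (SE 0.16) without swimming 5, with an interval from -0.11 to 0.60, and 0.54 (SE 0.31; limma adjusted p = 0.911) with all arrays. The second probe of Slc1a5 was dimmer than the median probe, at 5.90 to 6.40 in the 11 arrays (median 6.14). In swimming 5 it read 6.26, within that range.

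Among the basolateral carriers Slc3a2, the CD98 heavy chain shared by several exchangers, had the largest difference without swimming 5. It read 12.57, 12.86, 13.31, 12.08, 12.86 and 12.06 in control and 13.00, 13.45, 13.36, 12.90, 10.14 and 13.12 in swimming rats. Apart from number 5, every swimming rat lay above all controls except number 3, which was near-identical to swimming 3. The mean was 12.73 ± 0.46 in control (SD, n = 5) and 13.21 ± 0.24 in swimming rats (n = 4). The fitted difference was 0.54 (SE 0.21; limma adjusted p = 0.891) without swimming 5, a 1.46-fold difference in intensity, and 0.038 (SE 0.49; limma adjusted p = 0.993) with all arrays. An exact permutation test on this probe, two-sided and unadjusted, gave p = 0.0498 without swimming 5, with each of the 11 arrays counted singly, and p = 0.965 with it. With near-identical arrays averaged (5 against 4 samples) the difference was 0.47 (SE 0.22; exact permutation p = 0.0873). In the restricted comparison the difference was 0.56 (SE 0.21; exact permutation p = 0.0857, where 0.0286 is the smallest possible). The near-identical controls 4 and 6 were the lowest of the 11 arrays, and without both the difference was 0.27 (SE 0.16).

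Slc7a7 encodes y+LAT1, the light subunit through which dibasic amino acids leave the enterocyte and the gene affected in lysinuric protein intolerance. It read 12.06, 12.06, 12.72, 12.09, 12.83 and 12.01 in control and 12.31, 12.71, 12.69, 12.31, 8.60 and 12.41 in swimming rats. Apart from swimming 5, the swimming rats lay between the 4 lower and the 2 higher controls. The difference was 0.19 (SE 0.17) without swimming 5, with a 95% interval from -0.17 to 0.55, and -0.46 (SE 0.60; limma adjusted p = 0.922) with all arrays.

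Slc7a8, the light subunit LAT2 for neutral amino acids, gave a signal near that of the median probe. It read 6.34, 6.89, 7.35, 6.89, 6.66 and 6.42 in control and 6.96, 7.39, 7.17, 6.82, 5.91 and 6.91 in swimming rats, with overlap between the groups. The difference was 0.29 (SE 0.17) without swimming 5, with a 95% interval from -0.076 to 0.66, 0.43 (SE 0.16) in the restricted comparison and 0.10 (SE 0.23; limma adjusted p = 0.958) with all arrays.

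Slc7a5, the light subunit LAT1 for large neutral amino acids, is known for high expression in dividing cells. It read 6.34, 6.65, 6.37, 6.43, 6.42 and 6.43 in control and 6.67, 6.56, 6.31, 6.87, 7.04 and 7.08 in swimming rats. Of the swimming arrays, 4 lay above every control, among them swimming 5 and both near-identical swimming arrays, while swimming 3 lay below every control. With all arrays the difference was 0.31 (SE 0.12; limma adjusted p = 0.911; exact permutation p = 0.0390, unadjusted). It was 0.26 (SE 0.12) without swimming 5, with a 95% interval from -0.00038 to 0.51 (exact permutation p = 0.0649), and 0.27 (SE 0.12; exact permutation p = 0.0857) in the restricted comparison. With near-identical arrays averaged and swimming 5 left out it was 0.19 (SE 0.12; exact permutation p = 0.206). Without swimming 5 and swimming 6 it was 0.16. Over 9 genes of crypt stem and transit cells the means were 8.54, 8.66, 8.30, 8.59, 8.18 and 8.54 in controls 1 to 6. They were 8.75, 8.31, 8.29, 8.69, 8.63 and 8.69 in swimming 1 to 6. The 4 arrays with the highest Slc7a5 were swimming 1, 4, 5 and 6, and control 2 lay above swimming 5 in the crypt mean. The part of these cells in the Slc7a5 reading was not tested.

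**Figure D2:**
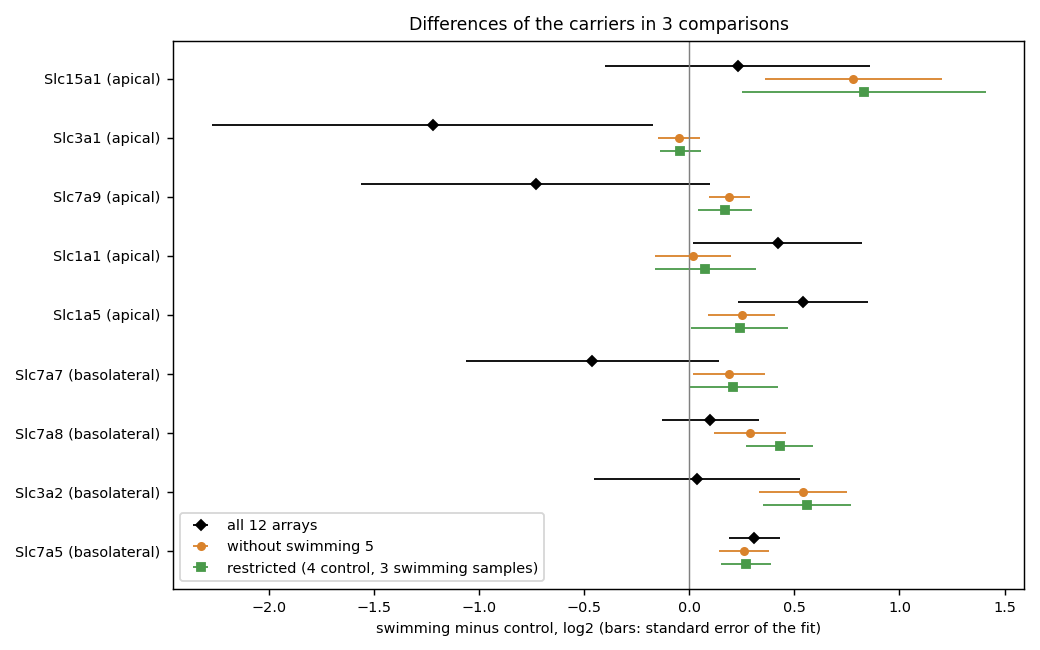
Swimming minus control (horizontal axis, log2, bars are the standard error of the limma fit) for the 9 measured carriers with all 12 arrays (black), without swimming 5 (orange) and in the restricted comparison (green). Black points spread from -1.22 to 0.54, and without swimming 5 all lie between -0.049 and 0.78.

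Apical and basolateral carriers were set side by side without a test, since the members were chosen with earlier results known. Without swimming 5, 4 of 5 apical carriers read higher in swimming rats, with a median of 0.19, and 4 of 4 basolateral carriers, with a median of 0.27. In the restricted comparison the counts were again 4 of 5 and 4 of 4, with medians of 0.17 and 0.35. With all arrays 3 of 5 apical carriers read higher, with a median of 0.23, and 3 of 4 basolateral ones, with a median of 0.070. Leaving out each of the 12 arrays in turn moved these medians from -0.0011 to 0.45 (apical) and from -0.062 to 0.27 (basolateral). The apical median turned negative without swimming 2, and the basolateral one without control 6 or swimming 2 or 3. With near-identical arrays averaged they were -0.0067 and -0.031. Each gene was also centred on its control mean, and the median of a class was taken in each array. Apart from swimming 5 the apical median lay between -0.40 and 0.32 and the basolateral one between -0.31 and 0.52. The highest apical medians were 0.32 in swimming 4 and 0.29 in swimming 6, and the highest basolateral ones 0.52 in swimming 2 and 0.51 in control 3. The difference between the classes was smaller than the spread between arrays of a class.

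In the array labelled swimming 5 the apical carriers split, with 3 below and 2 above all other arrays, while of the basolateral ones 3 lay below and 0 above. Of all 22523 probes, 3265 lay below and 3815 above all other arrays in swimming 5. Of the 11261 probes brighter than the median probe, 2412 lay below and 2756 above. Against the median of the other 11 arrays, the difference was -7.00 log2 units for Slc3a1 (6.06 against 13.06) and -5.47 for Slc7a9 (7.10 against 12.57). It was -3.72 for Slc7a7, -2.98 for Slc15a1, -2.75 for Slc3a2 and -0.98 for Slc7a8. Slc1a1 lay 2.25 higher (10.62 against 8.37), Slc1a5 2.05 higher and Slc7a5 0.61 higher, the last within the range of the others. By more than 1 log2 beyond every other array, 5 of 9 carriers lay below, against 1.91% of all probes and 3.83% of those brighter than the median probe. Above them lay 2 of 9, against 1.63% and 3.04%. Of the apical carriers 3 lay below and 2 above by this margin, and of the basolateral ones 2 below and 0 above. Slc15a1, Slc3a1 and Slc7a8 read under the median probe of 6.36 in this array, where intensity understates a difference in RNA. This is 1 array, so none of these differences has a replicate or a test.

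**Figure D3:**
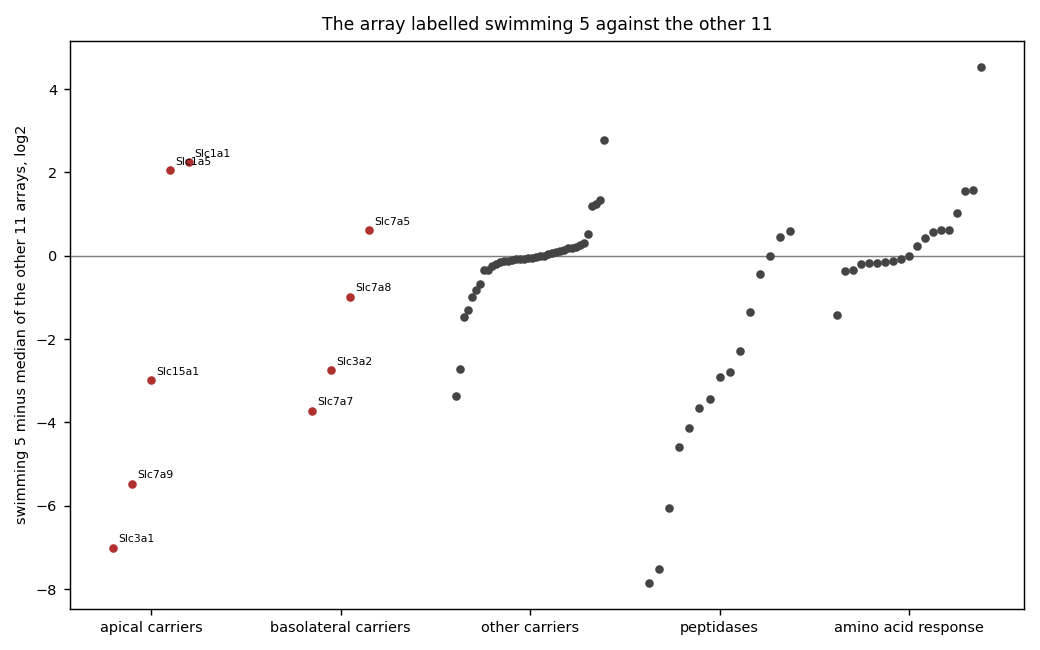
Difference between swimming 5 and the median of the other 11 arrays (vertical axis, log2), 1 point per gene, for the 5 apical and 4 basolateral carriers (red, named), 38 other carriers, 15 peptidases and 19 genes of the amino acid response. Carriers run from -7.00 for Slc3a1 to 2.25 for Slc1a1. Of the peptidases, 11 of 15 lie below the other arrays by more than 1 log2, against 1.91% of all probes.

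Subunits of the heteromers were compared over 8 samples, with near-identical arrays averaged across and within groups and swimming 5 left out. Slc3a2 and Slc7a8 gave Pearson r = 0.80 (exact permutation p = 0.0164, adjusted p = 0.0657 over 4 pairs) and Spearman rho = 0.90 (exact permutation p = 0.00456, adjusted p = 0.0183). Without the 2 samples farthest from the Slc3a2 median r was 0.96. Slc3a2 and Slc7a7 gave r = 0.70 (exact permutation p = 0.0504, adjusted p = 0.101) and rho = 0.64 (exact p = 0.0962, adjusted p = 0.192), and r = 0.56 without the 2 farthest samples. The coefficients were lower for Slc3a1 with Slc7a9 (r = 0.29, exact p = 0.482, adjusted p = 0.590; rho = 0.17, exact p = 0.703, adjusted p = 0.703), with r = 0.11 without the 2 farthest. For this pair r was 0.76 under median scaling (adjusted exact permutation p = 0.0501), where Slc3a2 with Slc7a8 gave 0.72, and 0.69 without the averaged swimming 4 and 6. The coefficients were also lower for Slc3a2 with Slc7a5 (r = 0.22, exact p = 0.590, adjusted p = 0.590; rho = 0.21, exact p = 0.619, adjusted p = 0.703), with r = 0.11 without the 2 farthest. As a description, the 32 other pairs of carriers, which form no heteromer with each other, were read over the same 8 samples. Their r ran from -0.74 for Slc1a1 with Slc7a7 to 0.75 for Slc15a1 with Slc7a8. Only the highest of them were like those of Slc3a2 with Slc7a8 and Slc7a7. These highest were r = 0.75 for Slc15a1 with Slc7a8, r = 0.74 for Slc15a1 with Slc3a2 and r = 0.69 for Slc7a9 with Slc3a2. Slc3a2 gave r = 0.06 with Slc1a5 and r = -0.47 with Slc1a1. The 8 samples come from both groups, and differences between the coefficients were not tested. Slc3a1 and Slc7a9 spanned a narrow range here, and both were far lower only in swimming 5.

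**Figure D4:**
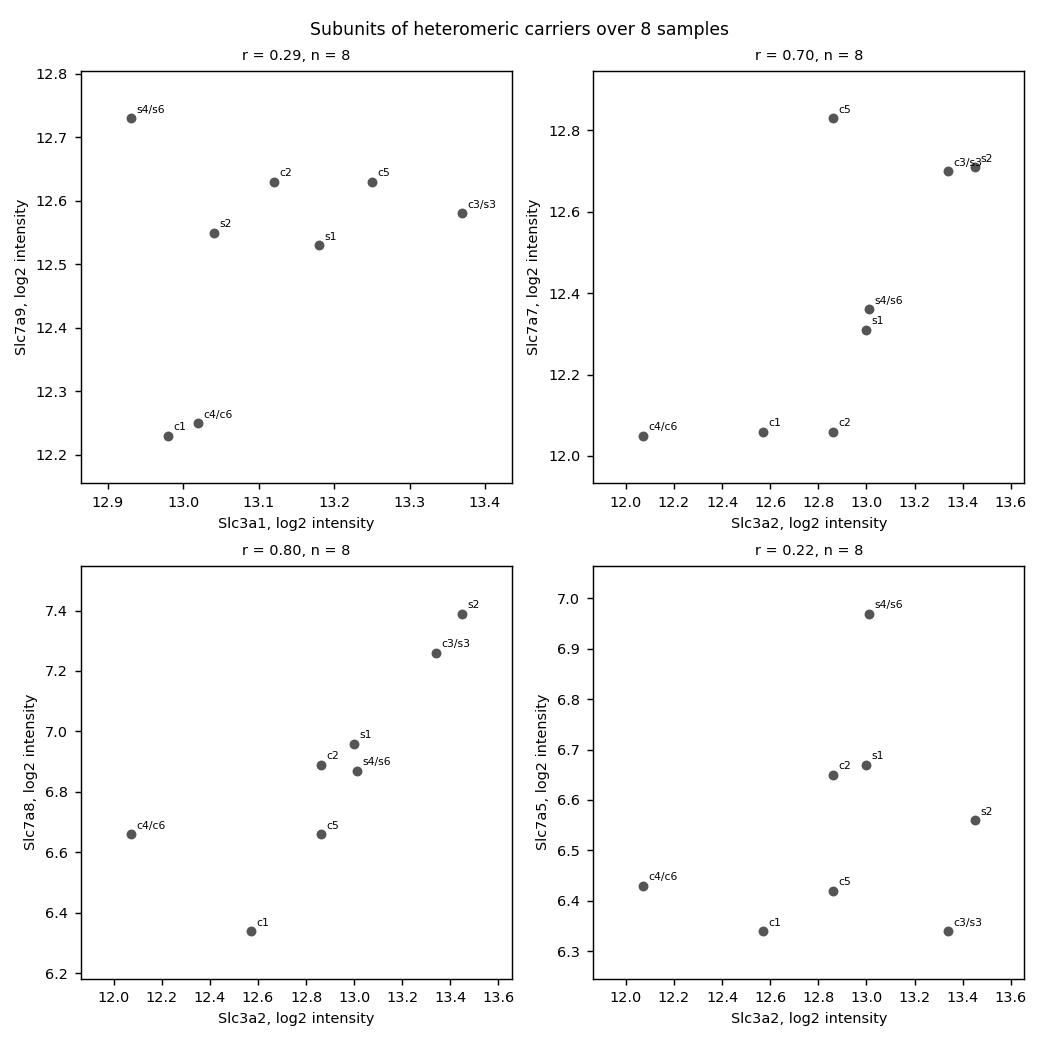
Log2 intensities of paired subunits over 8 samples (c, control; s, swimming; joined labels are averaged near-identical arrays; swimming 5 left out). Slc7a8 runs with Slc3a2 (r = 0.80), with less order for Slc7a7 (r = 0.70), and little for Slc7a5 (r = 0.22) and for Slc7a9 with Slc3a1 (r = 0.29 here and 0.76 under median scaling).

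Genes of the exocrine pancreas, a gland that adjoins the duodenum, read highest in the arrays where 2 basolateral carriers did. The mean of 19 measured pancreas genes was 9.71 in swimming 2 and 8.81 in both control 3 and swimming 3, against 6.40 to 7.31 in the other 9 arrays. These 3 arrays were also the 3 highest for Slc3a2 and for Slc7a8, so for 2 of 9 carriers, where 2.22% of all probes have the same 3 arrays on top. Control 3 and swimming 3 are near-identical, so these are not 3 separate samples. No correlation of the pancreas genes with the carriers was computed. Over the 6 samples left without these arrays r was 0.55 for Slc3a2 with Slc7a8, 0.47 with Slc7a7 and 0.62 with Slc7a5, and 0.29 for Slc3a1 with Slc7a9. The swimming difference of Slc3a2 without swimming 5 was 0.52 (SE 0.20) without these 3 arrays, against 0.54 with them. This fit took only 5 control and 3 swimming arrays. The near-identical controls 4 and 6, and the near-identical swimming 4 and 6, were counted singly in it, so its SE are too small. Without these arrays the difference was 0.26 for Slc7a8, 0.73 for Slc15a1 and 0.13 for Slc7a7. For Slc1a5 it went from 0.25 to 0.43 (SE 0.18), and for Slc7a5 from 0.26 to 0.42 (SE 0.11, limma adjusted p = 0.578).

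**Figure D5:**
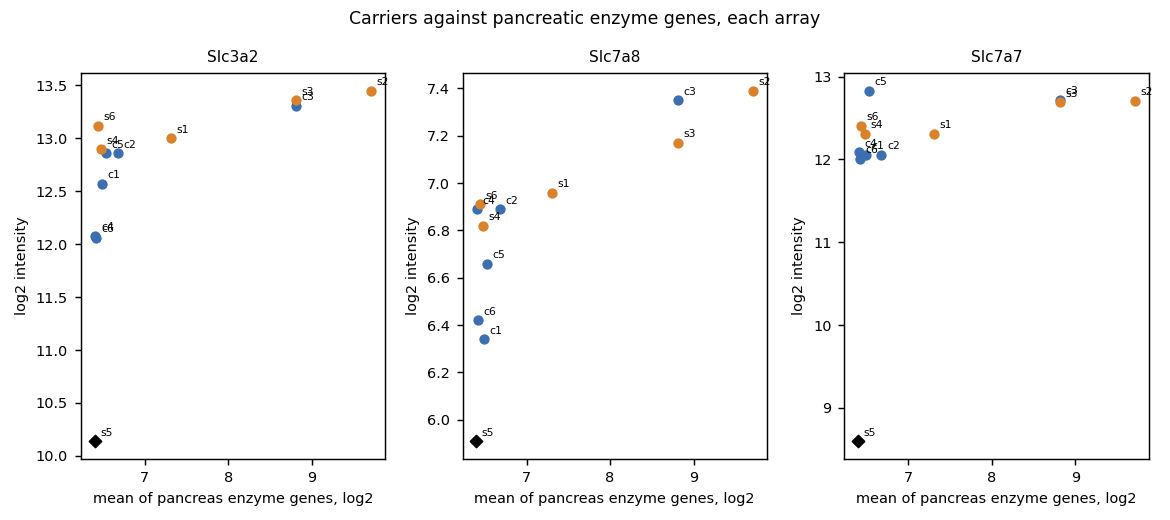
Log2 intensity of 3 basolateral carriers (vertical axes) against the mean log2 intensity of 19 exocrine pancreas genes, mostly of digestive enzymes (horizontal axes), in each array. Blue and c mark control, orange and s mark swimming, and the black diamond is swimming 5. Swimming 2, swimming 3 and control 3 lie at 8.81 or more on the horizontal axis and are the highest arrays for Slc3a2 and Slc7a8.

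Of 42 other amino acid and peptide carriers listed, 38 were measured and 0 passed the test. With all arrays 15 read higher and 23 lower in swimming rats (median -0.023), and without swimming 5 16 and 22 (median -0.024). The smallest unadjusted p belonged to Slc7a10, a light subunit for small neutral amino acids, at 0.21 (SE 0.064), to Slc7a3, a carrier of cationic amino acids, at -0.16 (SE 0.072), and to Slc6a6, the taurine transporter, at -0.42 (SE 0.22). Slc7a10 and Slc7a3 were dimmer than the median probe. The adjusted p from limma was 0.911 for each. In swimming 5, Slc38a2, the sodium-coupled neutral amino acid carrier SNAT2, read 13.36 against 10.35 to 11.30 in the others, and was the only one of the 38 above them by more than 1 log2. Slc25a15, the mitochondrial ornithine carrier, at 7.83 against 10.76 to 11.36, Slc16a10, the basolateral aromatic amino acid carrier TAT1, at 7.06 against 8.88 to 10.07, and Slc36a1, a proton-coupled carrier, at 6.60 against 7.70 to 8.72 lay below by that margin. These 4 were named after their values were seen. By this margin 1.63% of all probes lay above every other array and 1.91% below. Among probes brighter than the median probe these shares were 3.04% and 3.83%. Slc16a10 also differed by 0.52 without swimming 5, and by 0.049 with it.

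Proteins that work with these carriers also had no member that passed. Cltrn, collectrin, a partner of the neutral amino acid carrier in kidney, differed by 0.16 (0.24 without swimming 5). Nherf1, a scaffold of the brush border, differed by -0.078 (0.23), and Slc9a3, the sodium-proton exchanger that sustains the proton gradient for peptide uptake, by 0.040 (-0.35).

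Peptidases supply the substrates of the carriers. Of 15 measured, 5 read higher and 10 lower with all arrays (median -0.23), and 11 higher and 4 lower without swimming 5 (median 0.11), and 0 passed. Dpep1, a dipeptidase of the membrane, differed by 0.45 (SE 0.16; limma adjusted p = 0.911) and by 0.38 without swimming 5. Tmprss15, the enteropeptidase that activates trypsinogen, differed by -1.45 (SE 1.11; -0.26 without swimming 5), and Enpep, glutamyl aminopeptidase, by 0.17 (SE 0.14; 0.26 without swimming 5). Without swimming 5, 5 of the 15 had an unadjusted p under 0.05, against 5.05% of all probes, with limma adjusted p = 0.891 for each. They were Cndp2 (0.53), Dpp4 (0.42), Mme (0.62), Xpnpep2 (0.41) and Dpep1, all higher in swimming rats, and apart from Dpep1 they were named after their values were seen. That fit counts near-identical controls 4 and 6 singly, which had the lowest peptidase means apart from swimming 5 (11.11 and 11.10). In the restricted comparison 4 of the 15 had an unadjusted p under 0.05 (Cndp2, Mme, Enpep and Dpp4), against 3.27% of all probes. In swimming 5, 11 of the 15 lay more than 1 log2 below every other array, against 1.91% of all probes and 3.83% of those brighter than the median probe. The mean of the 15 was 8.36 in this array, against 11.10 to 11.71 in the others.

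Genes that cells induce when amino acids are short, through the factor ATF4, were measured for 19 of 24 listed. With all arrays 13 read higher and 6 lower (median 0.10), and 0 passed. Phgdh, the first enzyme of serine synthesis, differed by 0.49 (SE 0.21), Wars1, tryptophanyl-tRNA synthetase, by 0.26 (SE 0.13), and Ddit3, the stress factor CHOP, by -0.45 (SE 0.23). Without swimming 5, 11 of the 19 read higher and 8 lower (median 0.088). In that fit 3 of the 19 had an unadjusted limma p under 0.05, against 5.05% of all probes, with limma adjusted p = 0.891 for each. They were Ddit3 (-0.61) and Nupr1 (-0.38), lower in swimming rats, and Wars1 (0.30), higher. Nupr1 was named after its values were seen. Of 15 measured enzymes of amino acid metabolism in enterocytes, 7 read higher and 8 lower (median -0.079), and 10 and 5 without swimming 5 (median 0.12). Odc1, ornithine decarboxylase of polyamine synthesis, differed by 0.29 (SE 0.15), Asl, argininosuccinate lyase, by 0.18 (SE 0.096), and Glud1, glutamate dehydrogenase, by 0.33 (SE 0.18). With all arrays the limma adjusted p was 0.911 for each of Phgdh, Wars1, Ddit3, Odc1, Asl and Glud1.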

How the data were processed

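Per the labels, total RNA was amplified and biotin-labelled with an Illumina kit and hybridised to single-colour bead arrays. Per the file headers, the deposited raw table holds the average signal intensity of each probe, and its lowest value is 35.5. The authors' second table holds intensities with a median of 16.01 in each array and 26.22 to 26.32% of values below 0. How it was made and the reading software are not given in the sources used here. Each of its 12 columns ranked probes most like the raw column of the same array.

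Raw intensities were corrected with normexp (offset 50), quantile-normalized and put on a log2 scale. All 22523 probes were tested, two-sided, with limma 3.58.1 in R 4.3.3 (lmFit, eBayes, Benjamini-Hochberg over all probes). Symbols came from the platform annotation for 13793 probes, of which 13752 matched GRCr8 by Entrez identifier with 0 symbols changed, and 8730 are unnamed here. Near-identical arrays were pairs whose spread (scaled median absolute deviation) over 4933 bright probes (mean above 8) was below that over 5147 dim probes (mean under 6.1). Exact permutation tests used all 924, 462 or 35 assignments of samples for 12 arrays, 11 arrays and the restricted comparison, with smallest possible p of 0.00216, 0.00216 and 0.0286, and all 126 (smallest p 0.00794) for 11 arrays with near-identical ones averaged, a test added after seeing the data. Correlations used all 40320 pairings. The fit was tested on simulated data. The tables hold no detection p-values or bead counts, so the number of arrays limits precision, and no batch is named in the labels.

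Named genes were every member and, from each other list of functions, up to 3 with the smallest unadjusted p with all arrays. Some further carriers, peptidases and genes of the amino acid response were named after their values were seen, as stated where they appear. The members and lists were chosen with earlier results of these data known. Markers of stroma and smooth muscle (6.91 to 8.16), immune cells (7.34 to 8.24) and red blood cells (7.26 to 8.88) were read as list means per array.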

Additional observations from a re-analysis of the deposited data

Results flagged for a closer look

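In each group of 6 arrays, an array was set apart where its gap to the nearest other exceeded 0.625 of the group's range, which chance gives in about 1 of 20 groups. This happened in 8 of the 18 groups checked (9 carriers in 2 groups). In 7 of them the array was swimming 5. It read 5.91 for Slc15a1 where the nearest swimming array read 8.83, 6.06 for Slc3a1 (nearest 12.85), 7.10 for Slc7a9 (nearest 12.53), 8.60 for Slc7a7 (nearest 12.31) and 10.14 for Slc3a2 (nearest 12.90). It read 10.62 for Slc1a1 (nearest 8.44) and 9.28 for Slc1a5 (nearest 7.77). These 7 are readings of 1 array and not separate events. The last was Slc7a5 in control 2, at 6.65, where the nearest control read 6.43.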

How the results depend on the processing

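Over 24 alternative limma fits 0 probes were called in any, among them that with a replicate block (0 probes, 0 carriers, 0 other carriers called). Equal replicate numbers were not taken as pairs. Deviations of same-numbered arrays correlated at 0.73 for replicate 3 (the near-identical pair), 0.25 for replicate 6 and 0.15 for replicate 4, with the lowest at -0.020, and controls 3 and 6 were matched best by their own number. The sign turned in 19 of 234 combinations of carrier and setting, in 5 of 9 carriers. Some of these settings leave the fitted difference as it is, so they could not turn its sign. They were dim probes left out, the trend and robust options of limma, the replicate block and the exact permutation test. The mean of all probes can move the difference only for Slc1a5. Slc7a9 and Slc7a7 turned from -0.73 and -0.46 to 0.19 and 0.19 without swimming 5, to 0.17 and 0.21 in the restricted comparison, and to 0.13 and 0.17 without swimming 5 and with pairs averaged. Slc15a1 (0.23) turned to -0.0067 and Slc3a2 (0.038) to -0.14 with near-identical arrays averaged, and to -0.17 and -0.24 without both near-identical controls, a setting chosen after seeing the data. Leaving out each array in turn gave -0.0011 to 0.78 for Slc15a1, -0.93 to 0.19 for Slc7a9, -0.63 to 0.19 for Slc7a7, -0.0042 to 0.29 for Slc7a8 and -0.12 to 0.54 for Slc3a2. Slc15a1 and Slc7a8 turned without swimming 2, and Slc3a2 without control 4 or 6 or swimming 1, 2, 3, 4 or 6. Slc3a1, Slc1a1, Slc1a5 and Slc7a5 kept their sign in each of these settings, but without swimming 5 and with 1 further array left out Slc3a1 ran from -0.11 to 0.0092 and Slc1a1 from -0.098 to 0.10. Other causes of these turns were not tested. Values of the deposited processed table under 16 were set to 16 before log2, and its median is 16.01 in each array. Under other processing the size moved by over 1.5 times for Slc7a5 (0.31 to 1.06), Slc7a8 (0.10 to 0.50) and Slc1a5 (0.54 to 0.85) in the deposited processed table and for Slc1a5 (0.27) with the mean of all probes. It did so for Slc15a1 (0.14) with offset 16, for Slc7a7 (-0.30) and Slc3a2 (0.15) under median scaling, and for Slc7a8 (0.067) and Slc3a2 (0.099) under cyclic loess. Without both near-identical controls the class medians were -0.17 (apical) and -0.094 (basolateral). The correlation of Slc3a2 with Slc7a7 was 0.87 under median scaling (adjusted exact permutation p = 0.0358) and 0.62 to 0.86 when each sample was left out, passing adjustment without control 5. That of Slc3a1 with Slc7a9 was 0.76 under median scaling and 0.45 under cyclic loess, and 0.083 to 0.69 when each sample was left out. That of Slc3a2 with Slc7a8 was then 0.72 to 0.97, and passed adjustment without control 1, 5 or the averaged controls 4 and 6. Settings for correlations and class medians were chosen after seeing the data. Slc7a8 and Slc7a5 lie near the median probe, where low signal limits what can be seen.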
